A study of Rattus norvegicus with 7 samples.

Results

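The data describe rno-miR-221-3p and rno-miR-222-3p (miR-221-3p, miR-222-3p), the 3p strands of 2 microRNA (miRNA) hairpins, in rat skeletal muscle cells with and without interleukin-6 (IL-6). Both were chosen by name from the 719 miRNAs on the array, and every probe that carries their names was read. The cells were primary cells (RSkMC) from limb muscle of newborn rats, bought from a cell collection after freezing at an early passage, on day 11 after myogenic differentiation was started by a change to horse serum medium. In 3 samples the cells were untreated (control), and in 4 samples recombinant IL-6 was present at 1 ng/ml during differentiation; all 7 samples share cell source, medium and day. The titles and the series design give these groups, while the growth text of the control samples names IL-6 too. The labels give no genotype or strain and leave unsaid whether replicates came from different cultures. The p-values therefore cover no more than the variation among these 7 samples. Total RNA was used, so fewer cells of a type and less RNA per cell cannot be told apart.

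miRNAs are short RNAs that guide Argonaute proteins to messenger RNAs, mainly through the seed at bases 2 to 8, and lower the output of those messengers. miR-221 and miR-222 are made from neighbouring hairpins on the X chromosome and share targets, the best known being the cell cycle inhibitor p27 (Cdkn1b), together with p57 (Cdkn1c) and the receptor Kit. In myoblasts they are known to be high during proliferation and to fall when the cells leave the cycle and differentiate. They are also abundant in smooth muscle, fibroblasts and endothelium. IL-6 is a cytokine that contracting muscle releases and that signals through STAT3. The comparison asks whether its presence during differentiation goes with another level of the pair.

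The mature sequences are shown because the shared seed is what makes the pair act on the same targets. Both members were matched by name in the RefSeq table of build GRCr8, where the capitals mark the seed:
miR-221-3p: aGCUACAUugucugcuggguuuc
miR-222-3p: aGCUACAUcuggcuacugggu
miR-221-3p lies at chrX:6023246-6023268 and miR-222-3p at chrX:6022682-6022702, both on the plus strand. Their hairpins, Mir221 (109 bases) and Mir222 (103 bases), are 458 bases apart. The first 8 bases are identical, and 11 of the 21 positions that align from the 5′ end are. Of 693 mature rat miRNAs in that table, 2 (0.289%) have this seed, and they are these 2.

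Each member was measured by 2 probes of 10 spots per array. The probes are shown because they pair with the 3′ part of each miRNA, where the pair differs, and leave out part or all of the shared seed. Capitals mark probe bases without a partner in the other member when both miRNAs are aligned from their 5′ ends:
miR-221-3p, brighter probe: GAaAccCAGCAGACAatgta
miR-221-3p, second probe: GAaAccCAGCAGACAatgt
miR-222-3p, brighter probe: aCccAGTAGCCAGa
miR-222-3p, second probe: aCccAGTAGCCAG
The brighter probe of miR-221-3p is 20 bases long and pairs with bases 4 to 23 of its miRNA, and 12 of these bases have no partner in miR-222-3p. The brighter probe of miR-222-3p is 14 bases long and pairs with bases 8 to 21, and 10 of these have no partner in miR-221-3p. A probe can also pair at a shifted position. In the best ungapped position searched, 10 bases of the miR-221-3p probe and 4 of the miR-222-3p probe had no partner in the other member, so the miR-222-3p probe could pair with miR-221-3p over 10 of its 14 bases. For the second probes 9 and 3 bases had none. No other mature miRNA in the RefSeq table holds the full complement of any of the 4 probes. How much signal the probes share was not tested. Because the probes differ in length, no order of abundance between the 2 miRNAs is read from their signals.

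Both 3p strands were present in every sample. Feature Extraction, the scanner software, called them detected on 7 of 7 arrays, and all their probes were well above background on all 7, with no saturated spot. Before any scaling, the brighter probe of miR-221-3p gave 527, 627 and 617 intensity units on control replicates 1 to 3. With IL-6 it gave 536, 720, 621 and 642 on replicates 1 to 4. The unscaled groups overlapped, with control replicate 1 and IL-6 replicate 1 lowest and IL-6 replicate 2 highest. The brighter probe of miR-222-3p gave 179, 196 and 186 units in control and 172, 207, 177 and 194 with IL-6, again overlapping. The second probes were dimmer and varied in the same way, from 336 to 452 units for miR-221-3p and from 117 to 141 units for miR-222-3p.

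**Figure D1:**
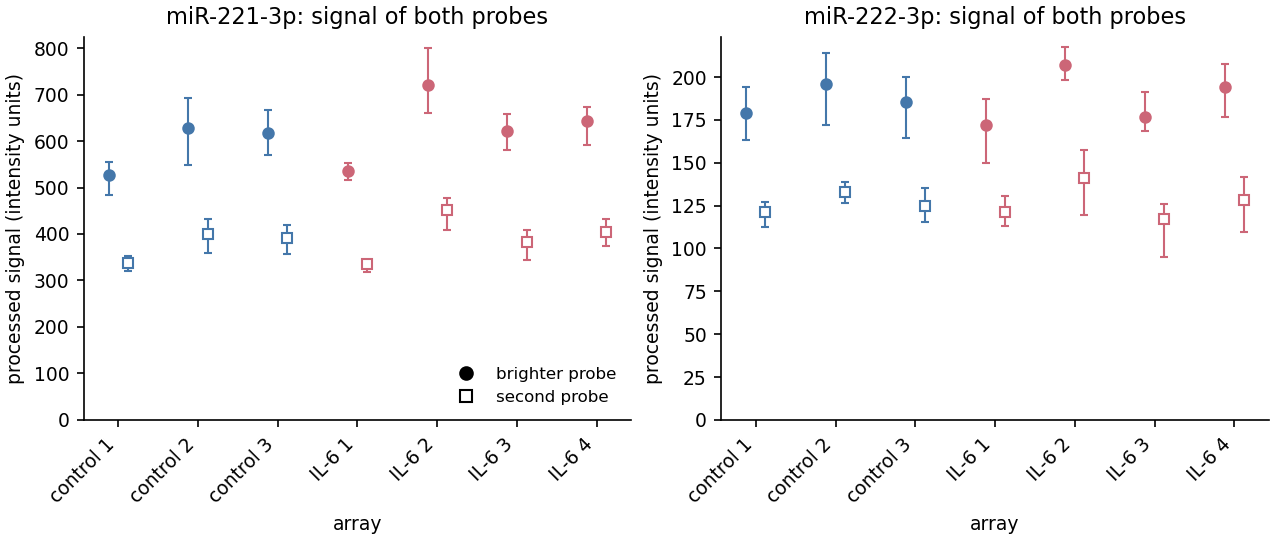
Background-subtracted signal of both probes of miR-221-3p and miR-222-3p on each array, in intensity units before scaling. Points are means over a probe's spots and bars run from the lowest to the highest spot; control is blue and IL-6 red. The groups overlap, and the brighter miR-221-3p probe runs from 527 to 720 units.

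The arrays differed in brightness. The 75th percentile of the probes well above background, by which each array was scaled, ran from 419 to 492 units in control and from 434 to 615 with IL-6, where replicate 2 was the brightest. Places on the slide were inferred from the closing numbers of each scan's name, read as row and column, since the labels give none. On this reading the controls lay in 1 row of the slide, at columns 1, 3 and 4, and the IL-6 arrays filled the other. The effects of treatment and of the row cannot be told apart. Of the 719 miRNAs, 174 to 207 were detected per array. The 181 that were detected throughout 1 group or both were tested with limma, a linear model fitted across all of them, with Benjamini-Hochberg adjustment and a threshold of 0.05.

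After scaling, miR-221-3p was slightly lower with IL-6, by an amount that did not pass the test. Its log2 values were 9.28, 9.38 and 9.28 in control and 9.26, 9.18, 9.20 and 9.26 with IL-6. Every IL-6 array lay below every control array, but the gap between the groups was small beside the spread within them. The log2 fold change was -0.09 ± 0.04 (SE, 3 control and 4 IL-6 arrays), a change of -5.91% with a 95% interval from -11.7% to 0.254% (limma, unadjusted p = 0.0572, adjusted p = 0.20). The exact two-sided permutation test over the 35 splits of the arrays gave p = 0.0571, where 0.0286 is the smallest possible. Groups that do not overlap were common: 40 of the 181 tested miRNAs (22.1%) had them, and 19 (10.5%) in the lower direction.

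miR-222-3p had a larger negative fold change with a wider error, and it did not pass either. Its log2 values were 7.73, 7.70 and 7.54 in control and 7.62, 7.38, 7.39 and 7.54 with IL-6. Control replicate 3 lay at the level of IL-6 replicate 4 and below IL-6 replicate 1, so the groups overlapped. The log2 fold change was -0.17 ± 0.08, a change of -11.4% with a 95% interval from -22.4% to 1.11% (limma, unadjusted p = 0.0661, adjusted p = 0.222). The exact two-sided permutation test gave p = 0.114. These intervals leave room for no change and for changes as low as -11.7% in miR-221-3p and -22.4% in miR-222-3p.

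**Figure D2:**
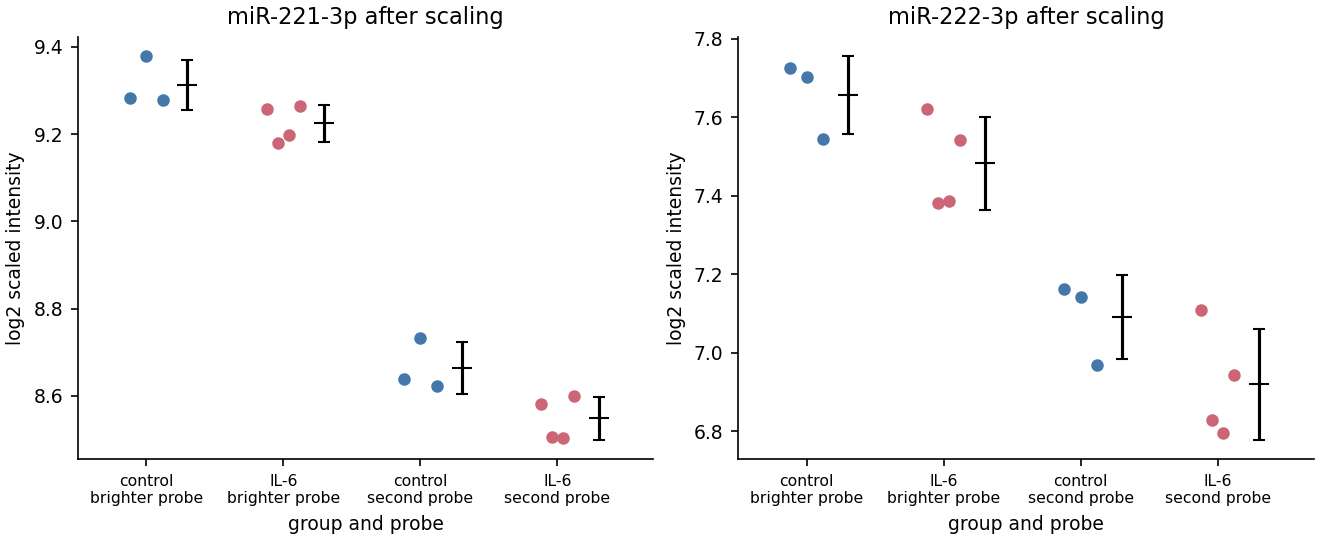
Log2 scaled intensity of both probes of each member, with 1 point per array (control blue, IL-6 red) and the group mean ± SD in black. For miR-221-3p the control mean was 9.31 and the IL-6 mean 9.23, and for miR-222-3p they were 7.66 and 7.48, on the brighter probes.

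The second probes gave like values. For miR-221-3p the second probe had a log2 fold change of -0.12 ± 0.04 (limma, unadjusted p = 0.0293, adjusted p = 0.146). For miR-222-3p it had -0.17 ± 0.09 (adjusted p = 0.311). Both probes of a member read the same labelled RNA on the same array, so they are repeat readings and not further samples.

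Repeat spots on the same array gave the reading error. Spots of 1 probe varied with a coefficient of variation of 2.50% to 7.56% for the brighter miR-221-3p probe and 2.68% to 7.69% for that of miR-222-3p. From spots alone the standard error of the fold change would be 0.02 for either member. The SD between arrays of 1 group was 0.05 for miR-221-3p and 0.11 for miR-222-3p on the log2 scale, which is 2.06 and 4.16 times the standard error of the mean of the spots on 1 array.

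Set against the other miRNAs, the pair was not among those that changed. In all, 17 of 181 tested miRNAs (9.39%) passed in limma, 9 higher (4.97%) and 8 lower (4.42%) with IL-6, and 0 of the 2 members were among them. An unadjusted p under 0.05 was found for 49 of the 181 (27.1%) and for neither member. The split of calls moved with the scaling, to 7 higher and 11 lower with quantile normalization and 4 higher and 0 lower with spike-in scaling, and to 3 and 2 with total gene signal. With no scaling, in the deposited value table and when scaled by the 75th percentile of all probes, 0 passed in limma, where 29, 28 and 1 had an unadjusted p under 0.05. Over the 181 the median was 0.02 and the quartiles of the log2 fold change were -0.07 and 0.09; 77 (42.5%) had a negative one. Counted from the lowest fold change, miR-222-3p stood at rank 15 and miR-221-3p at rank 39 of 181.

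**Figure D3:**
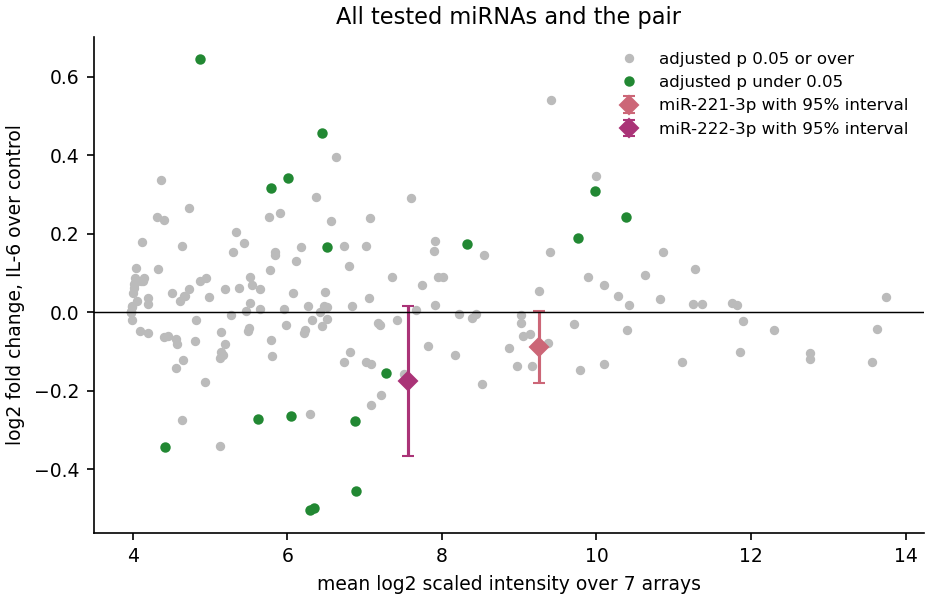
Log2 fold change (IL-6 over control) against the mean log2 scaled intensity for the 181 tested miRNAs, with those that passed in green. Diamonds are miR-221-3p at -0.09 and miR-222-3p at -0.17, whose 95% intervals (bars) both include 0.

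The sign of these fold changes rested on how the arrays were scaled. With no scaling the log2 fold changes were 0.09 ± 0.12 for miR-221-3p and 0.0027 ± 0.08 for miR-222-3p, and with spike-in scaling 0.10 ± 0.09 and 0.01 ± 0.06. In those settings the centre of the whole set shifted as well, to medians of 0.17 and 0.18. Relative to that median the pair was lower in each of the 28 settings examined. The difference from it was -0.10 for miR-221-3p as reported (-0.15 to -0.06 over the settings) and -0.19 for miR-222-3p (-0.27 to -0.15). Subtracting the median takes out a shift that all miRNAs share, so this sign could hardly turn with the scaling. The settings reread the same 7 arrays and are not separate tests. How many other miRNAs stayed below the median throughout was not counted.

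With normexp background correction, another estimate of the background, miR-222-3p had -0.10 ± 0.09. With array weights, where limma gives noisier arrays less influence, both members passed. miR-221-3p then had -0.13 ± 0.04 (limma, adjusted p = 0.0483) and miR-222-3p -0.25 ± 0.06 (limma, adjusted p = 0.0282), with 47 of 181 miRNAs passing. The weights were 0.277 for IL-6 replicate 1 and 0.526 for control replicate 3, against 1.03 to 2.32 for the other 5 arrays. These down-weighted arrays are the IL-6 array with the highest and the control array with the lowest miR-222-3p. Over all settings the adjusted p ran from 0.0483 to 1 for miR-221-3p and from 0.0282 to 1 for miR-222-3p. Leaving out 1 array at a time, miR-221-3p ran from -0.11 to -0.05, smallest without control replicate 2, and miR-222-3p from -0.23 to -0.14; neither passed in these 7 fits (limma, adjusted p from 0.164 to 0.494 and from 0.121 to 0.533).

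**Figure D4:**
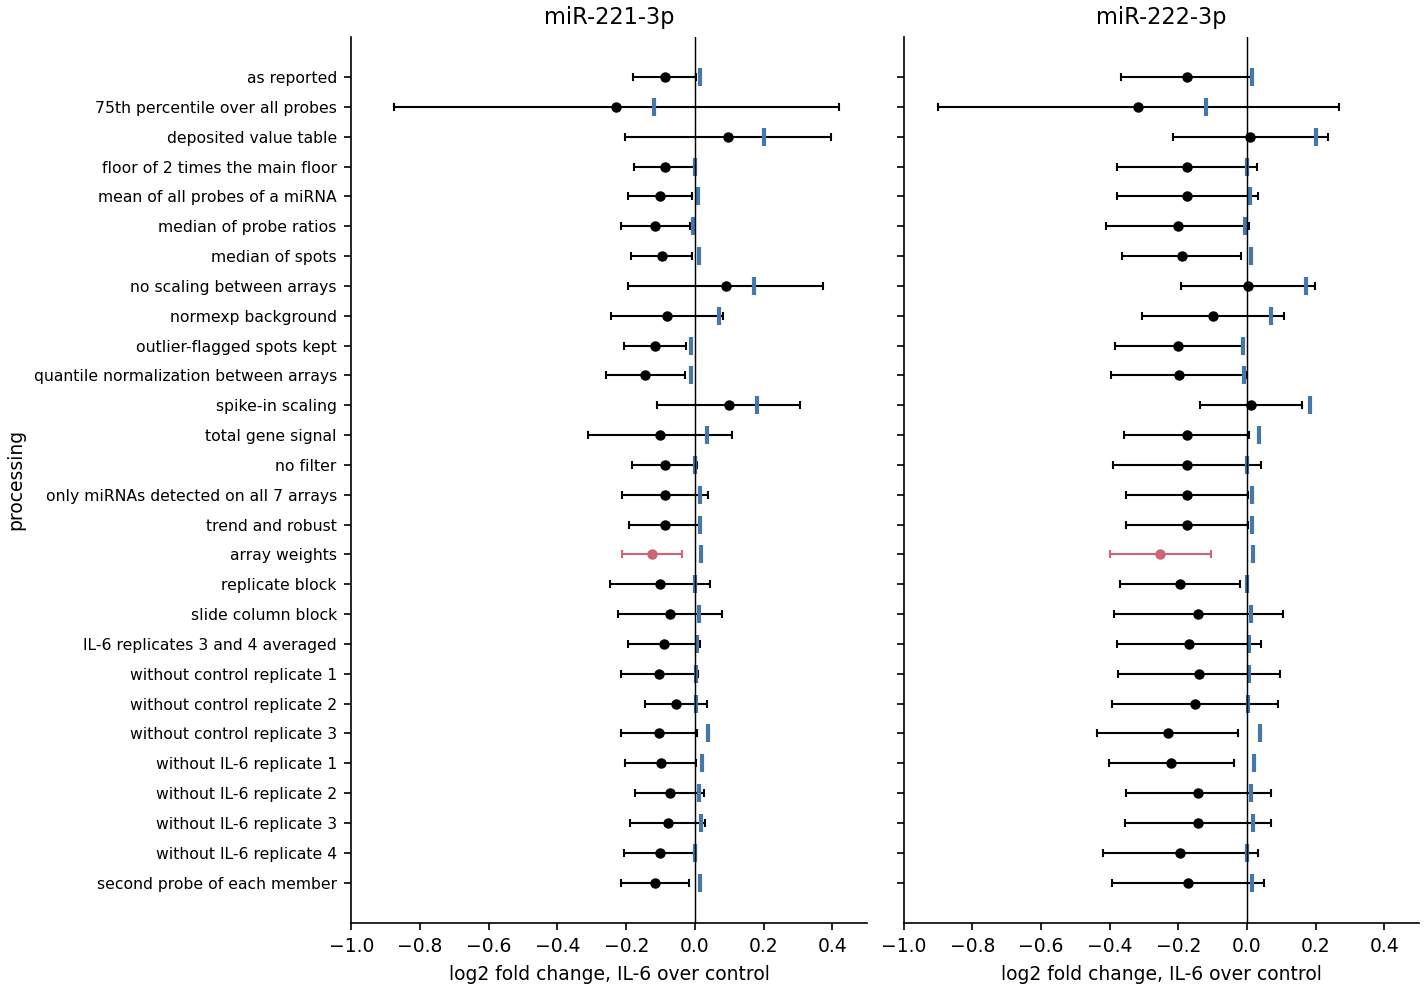
Log2 fold change of each member with its 95% interval under each processing setting, red where the adjusted p was under 0.05; blue ticks are the median of all miRNAs in that fit. The red points are those with array weights, at -0.13 and -0.25, and each point lies left of its blue tick.

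The fold changes of the members were compared through the ratio of their probes within each array, which does not depend on a common scaling factor; only its difference between the groups is read. The log2 ratio of the brighter probe of miR-221-3p to that of miR-222-3p was 1.56, 1.68 and 1.73 in control and 1.64, 1.80, 1.81 and 1.72 with IL-6. The groups overlapped. The mean ratio was higher with IL-6 by 0.09 ± 0.06 (SE), so a difference between the 2 fold changes was not detected (exact two-sided permutation p = 0.257). Over the alternatives this difference ran from 0.02 to 0.13 (exact permutation p from 0.143 to 0.83). With 1 array left out, or IL-6 replicates 3 and 4 averaged, the 15 or 20 splits allow no p under 0.05.

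Across the 7 arrays the scaled levels of the pair were correlated, to an extent that depended on the scaling. Pearson's r was 0.84 (exact permutation p = 0.0177) and Spearman's rho 0.86 (exact permutation p = 0.0238). Leaving out the 2 arrays farthest from the median of miR-221-3p, which were replicate 2 of each group, gave an r of 0.83. Leaving out the 2 farthest arrays in the same way under other settings gave 0.22 with spike-in scaling, -0.09 with total gene signal and 0.26 with normexp background. It gave 0.43 with quantile normalization. Without control replicate 2, IL-6 replicate 2 or IL-6 replicate 3 it gave 0.38, each time on the same remaining arrays. Under all of those the relation rests on the arrays left out. In the remaining settings this r ran from 0.72 with the second probes to 0.96 with the median of probe ratios. After subtracting group means r was 0.70. Both values of an array share its labelling, hybridisation and scaling factor: r was 0.85 with no scaling and 0.66 with spike-in scaling (exact permutation p = 0.0153 and 0.0853). It was also no longer past 0.05 without IL-6 replicate 2 (0.77, p = 0.0958) or without IL-6 replicate 3 (0.80, p = 0.0875), by the same exact permutation test.

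**Figure D5:**
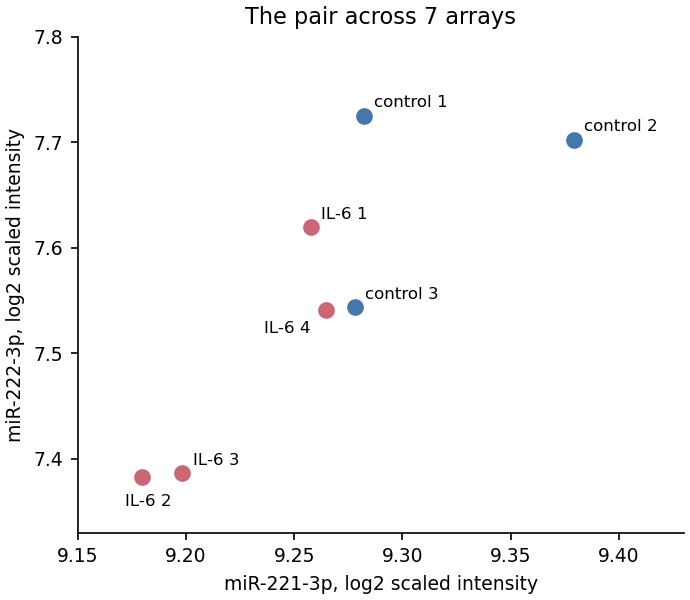
Log2 scaled intensity of miR-222-3p against miR-221-3p, 1 point per array (control blue, IL-6 red). IL-6 replicates 2 and 3 are lowest in both members, and control replicate 3 lies beside IL-6 replicate 4.

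Each member was set against 175 other tested miRNAs that were above the floor on some array. The profile most like that of miR-221-3p was miR-212-3p (r = 0.94, rho = 1), followed by miR-31a-5p (0.90, 0.96) and miR-324-3p (0.90, 0.93). miR-222-3p itself came at rank 5, and miR-221-3p at rank 9 for miR-222-3p. The exact permutation p for r of miR-212-3p was 0.000397, or 0.0694 after Benjamini-Hochberg adjustment over the 175. Leaving out replicate 2 of each group these r were 0.78, 0.65 and 0.94. For miR-222-3p the closest were miR-290 (r = 0.95, rho = 0.96), miR-3593-3p (0.93, 0.96) and miR-664-3p (0.92, 0.89), with exact permutation p of 0.00298, 0.000992 and 0.00734 and adjusted p of 0.118, 0.118 and 0.184. Leaving out IL-6 replicate 2 and control replicate 1 these r were 0.91, 0.86 and 0.90. In the same families the pair's own r had adjusted p of 0.343 and 0.213 (exact permutation).

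The opposite strands of both hairpins were not detected. miR-221-5p and miR-222-5p have their own probes, and none of these 4 was well above background on any of the 7 arrays. The highest of their array means was 2.57 intensity units, where the lowest signal of any probe well above background was 12.9. No fold change is given for them.

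Other miRNAs of the proliferation and differentiation programme gave a mixed picture. Of the miRNAs known to be high in proliferating myoblasts, 6 were tested, with a median log2 fold change of -0.02. In either direction 0 of the 6 passed, where 9.39% of all tested miRNAs did. miR-125b-5p, which restrains IGF-II, had -0.04 ± 0.03 and miR-23a-3p, which targets myosin heavy chain messengers, -0.12 ± 0.06. The list of miRNAs known to rise on differentiation leaves out the muscle markers given below. Of its 10 members on the array, miR-503-5p was not detected on any array. The other 9 were tested, with a median of 0.10. 1 rose, miR-181a-5p (0.31 ± 0.06, limma, adjusted p = 0.0240), and 0 fell, where 4.97% of all tested miRNAs rose. It was positive in 26 of 26 alternatives but passed in 11. It missed the threshold with the slide column as a block (0.34, limma, adjusted p = 0.0509) and with no scaling (0.49, 0.0682). The same held without control replicate 1, 2 or 3 or IL-6 replicate 3 or 4 (limma, adjusted p from 0.0647 to 0.0994). It was farther from passing with quantile normalization (0.23, limma, adjusted p = 0.243) and with normexp background (0.28, 0.788). miR-24-3p, which favours differentiation, had -0.10 ± 0.03 (limma, adjusted p = 0.0839). The miR-17 seed family targets p21, a cell cycle inhibitor related to p27. Its 5 tested members had log2 fold changes between 0.0016 and 0.02. None of them passed (limma), where 9.39% of all tested miRNAs did. Among them miR-20a-5p had 0.02 ± 0.07 and miR-106b-5p 0.01 ± 0.06. miR-17-5p and miR-20a-5p are in this family and in the list of proliferating myoblasts. miR-214-3p is in the differentiation list and among the fibroblast and smooth muscle markers below.

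Of the cytokine response list 4 were tested, with a median of -0.18, and 1 fell. That was miR-132-3p, a CREB-induced miRNA (-0.27 ± 0.06, limma, adjusted p = 0.0408), where 4.42% of all tested miRNAs fell. It was negative in 26 of 26 alternatives but passed in 8, and missed the threshold when any 1 array was left out (limma, adjusted p from 0.0580 to 0.0994), with the slide column as a block (-0.28, 0.0509) and with no scaling (-0.09, 0.696). miR-21-5p, which STAT3 induces, had 0.04 ± 0.08 (limma, adjusted p = 0.839). Its opposite strand, miR-21-3p, had -0.18 ± 0.10 (limma, adjusted p = 0.318). The neighbour of miR-132 at its locus, miR-212-3p, had -0.18 ± 0.05 (limma, adjusted p = 0.0839).

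The cell type was checked with marker miRNAs, since the pair is also abundant outside muscle. None of 7 muscle markers was detected on any array, among them miR-206-3p, made in differentiating myoblasts, and the contractile muscle miRNAs miR-1-3p and miR-133a-3p. The highest probe signal of the 7 was 9.23 intensity units, for miR-499-5p, where the lowest signal well above background was 12.9. All 5 fibroblast and smooth muscle markers were detected on all arrays. Their summed scaled signal was 23538 to 25290 units in control and 20952 to 24265 with IL-6, overlapping. None of the 5 passed, where 9.39% of all tested miRNAs did (miR-143-3p -0.13 ± 0.08, miR-199a-3p -0.04 ± 0.08). Neither of 2 endothelial nor any of 5 epithelial markers was detected on any array, and of 4 blood markers miR-223-3p was detected on 1. Of 5 nerve markers, miR-124-3p and miR-9a-5p were not detected on any array. The other 3 were tested, with 0 past the threshold (limma), against 9.39% of all tested miRNAs. Of these 3, miR-128-3p had -0.04 ± 0.06 and miR-218a-5p 0.25 ± 0.12. The part of cell mixture in the values of the pair was not tested.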

How the data were processed

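Cy3-labelled total RNA was hybridised to Agilent rat miRNA arrays, 1 per sample. The deposited scanner files give background-subtracted, detrended spot intensity made, per the file headers, by version 10.10.1.1 of Feature Extraction, with no scaling between arrays stated. The deposited value table equalled the total probe signal on all 15095 spots of each array (tolerance 0.001), so it is linear and unscaled.

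Control spots and outlier-flagged spots (2.88% to 3.84% of 14380) were left out and spots of a probe averaged. Arrays were scaled by the 75th percentile of 268 probes well above background on all arrays, with a floor of 15.8 units, and put on the log2 scale. Each miRNA took its brightest probe. limma 3.58.1 in R 4.3.3 was run over the 181 tested miRNAs; the fit was tested on simulated data.

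The members and lists were chosen with earlier results of these data known. Named were both members, their 5p strands and the 3 highest r per member. Per list, those past the threshold (up to 3) were named, and then the highest in level until 2. The individual muscle and blood markers, the undetected nerve and cytokine response miRNAs and the 3p strand of miR-21 were named after their values were seen. So were miR-503-5p and miR-214-3p. miR-155-5p, miR-378a-3p and miR-486-5p were not analysed here. Precision is limited by the number of arrays.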

Additional observations from a re-analysis of the deposited data

Results flagged for a closer look

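Among 23 quantities on the 4 IL-6 arrays (the pair, its second probes, its ratio and the other named miRNAs), 1 had an array standing apart by Dixon's test at its 95% critical value, which chance passes in about 1 of 20 groups. For miR-106b-5p replicate 4 lay above its group: its log2 value was 6.62, where the remaining arrays lay between 6.47 and 6.50, so that the gap took a share of 0.855 of the range. No value of miR-221-3p or miR-222-3p stood apart in this way.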

How the results depend on the processing

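miR-221-3p kept its negative sign and missed the threshold in 23 of 27 alternatives, and so did miR-222-3p. Signs turned in the deposited value table (0.10 and 0.0099), with no scaling (0.0895 and 0.0027) and with spike-in scaling (0.10 and 0.0112); both passed with array weights (-0.13 and -0.25). Scaled by the 75th percentile of all probes they were -0.23 ± 0.27 and -0.32 ± 0.24, where the median of all tested was -0.12. The difference between the fold changes kept its sign and missed the threshold in 21 of 21. In the alternatives with 15 or 20 splits it could not have passed. Several scalings repeat the same value, since a common factor cancels in the ratio. The r of the pair was 0.67 with normexp background, 0.66 with spike-in scaling and 0.64 with total gene signal, past 0.05 in none of these, and 0.77 to 0.93 leaving out 1 array. The 17 calls over all miRNAs (limma) became 0 under that scaling, the value table, no scaling, normexp, no filter and the slide column block (1 to 52 with an unadjusted p under 0.05). They became 11 with a doubled floor, 4 with spike-in scaling, 5 with total gene signal, 47 with array weights, 6 with IL-6 replicates 3 and 4 averaged, and 0 to 17 leaving out 1 array (0 without control replicate 1, 2 without control replicate 2). Leaving out samples or adding blocks leaves less information for a fit. The causes of these changes were not tested. Whether replicate numbers pair the samples cannot be decided on so few arrays. The r of deviations was 0.52, -0.18 and 0.26 for numbers 1 to 3. Control replicate 1 was closest to IL-6 replicate 1, control replicate 2 to IL-6 replicate 3 and control replicate 3 to IL-6 replicate 2. The replicate block gave 3 calls, with -0.10 for miR-221-3p and -0.19 for miR-222-3p, neither past the threshold. The second probes were added as an alternative after seeing the data. Signal over background limits the 5p strands; for miR-222-3p another background correction (normexp) gave -0.10, and a difference between the fold changes of 0.02.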
